A study of Mus musculus with 12 samples.

Results

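Ribosome footprints of 10 heat shock chaperone genes were followed in a mouse B cell lymphoma line: Hspa1a, Hspa1b, Hspa8, Hspa4, Hsph1, Dnajb1, Hsp90aa1, Hsp90ab1, Hspd1 and Hspe1. The members were taken by their Ensembl gene IDs, and all 10 were found among the 22520 IDs of the count tables. Of the 8 that passed a filter on low counts, 6 were called in at least 1 comparison of state or RPL12 genotype. Hspa4 and Dnajb1 were called in none. The averaged comparison of states alone called 2604 of 6692 genes, and the share called in at least 1 comparison was not computed. Hspa8, Hspd1 and Hspe1 had more footprints in mitotic than in asynchronous cells. Hsp90aa1 was higher in RPL12 S38A cells than in wild-type (WT) cells in both states. Hspe1 was lower there, on few reads, with calls that most of the fits leaving out 1 library lost. Hsp90ab1 fell in mitotic WT cells, and its mitotic change differed between S38A and WT cells, a call that 3 of 8 such fits lost.

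All cells came from the lymphoma line 19PP, established from a Rag2-/-γC-/- mouse, a host without lymphocytes of its own, that had received Cγ1-Cre; Myc/P110*flSTOP bone marrow. In that marrow Cre is driven from the Cγ1 locus. The reporters GFP and hCD2 were removed with Flp, and the growth protocol calls the resulting reporter-negative subline 19DN, while the characteristics name the line 19PP. Cells carried RPL12 WT, RPL12 S38A or RPL12 S38D. RPL12 belongs to the large subunit of the ribosome. S38A puts alanine, a residue that kinases cannot modify, in the place of a serine, and S38D puts the negatively charged aspartate there. Asynchronous cells of each genotype were compared with mitotic cells, which had been held for 8 hr in 100 ng/mL nocodazole, a microtubule poison, and then for 10 min in fresh medium. The state of the cells and the exposure to nocodazole therefore cannot be told apart. Each of the 6 groups held 2 libraries, which makes 12. The labels name neither separate cultures behind these libraries nor the number of clones per genotype, so p-values measure the spread between libraries, which may be technical. No table here paired the IDs with symbols of B cell markers, so the labelled cell type was not checked against them.

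Heat shock proteins are chaperones: they bind unfolded or newly made proteins and use ATP to help them fold. HSP70 proteins hold exposed hydrophobic stretches, J-domain proteins deliver the clients and start ATP hydrolysis, and HSP110 proteins release ADP so that the client can leave. HSP90 acts later and on a narrower set of clients, among them many kinases. HSP60 and HSP10, the products of Hspd1 and Hspe1, form the folding chamber of the mitochondrial matrix. Under stress the transcription factor HSF1 binds heat shock elements, arrays of GAA units in alternating orientation, in front of many of these genes. A footprint count reflects both the amount of an mRNA and how heavily ribosomes occupy it. In bulk samples fewer cells with a transcript and less transcript per cell cannot be told apart.

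Promoter sequence from RefSeq (GRCm38.p6) was available here for 7 of the 10 members, in 10 windows of 250 bases before to 50 bases after a listed start site. The windows were searched for 3 adjacent GAA units in alternating orientation, GAANNTTCNNGAA or TTCNNGAANNTTC, which are each other's reverse complement, so that both strands were covered. Matches occurred in 4 of the 10 member windows, against 0.603% of all 32851 windows. They belong to Hspe1, Hspd1 and Hsph1 and are only 2 separate elements, since windows overlap. The stretches are shown because Hspe1 and Hspd1, which are neighbours, share a single array, and because Hspa1a and Hspa1b, the inducible pair, are alike there to the base. Capitals mark the matched units.
Hspe1 and Hspd1: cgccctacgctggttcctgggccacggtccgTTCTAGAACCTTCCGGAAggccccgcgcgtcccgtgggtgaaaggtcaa
Hsph1: gctgcagaTTCTGGAAAGTTCt
Hspa1a: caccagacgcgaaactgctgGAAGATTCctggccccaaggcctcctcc
Hspa1b: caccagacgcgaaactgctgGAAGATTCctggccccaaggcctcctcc

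The first stretch, printed from the plus strand, is chr1:55088028-55088107. It lies between the start of Hspe1 and the listed start of Hspd1 that is nearer to this stretch. The 2 genes run in opposite directions. Its capitals, at chr1:55088059-55088076, are 2 overlapping matches that form a run of 4 units over 18 bases. The run starts 89 bases before the start of Hspe1, and its far end is 144 bases before that start of Hspd1. The 2 starts are 216 bases apart. Hspd1 has another listed start, beyond that of Hspe1, at the end of its annotated extent (chr1:55077833-55088243). The window of this other start has no 3-unit match, and the extent covers the run. Hsph1 holds its match at chr5:149636288-149636300 on the minus strand, 36 bases after 1 listed start and 15 bases after the other. The windows of Hspa4, Dnajb1, Hspa1a and Hspa1b had no 3-unit match. Only exact units were searched, so arrays with a changed base in a unit or outside the windows are missed.

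The shorter pair of units, GAANNTTC or TTCNNGAA, each its own reverse complement, is contained in the longer motif and was present in 15.1% of all windows. Hspa1a (chr17:34972233-34972280, minus strand) and Hspa1b (chr17:34959315-34959362, minus strand) hold such a pair at the same place. Their printed stretches are identical. Over the whole 300-base windows the 2 genes differed at 4 positions and were 98.7% identical. These matches describe letters in a window and do not show that HSF1 was bound, and promoter sequence gives no footprints, so this likeness does not measure that of the coding sequences.

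Coding reads per library ranged from 258354 to 505500, and 9313 to 9818 genes had at least 1 read. The chaperones together took 0.669 to 0.965% of the coding reads of a library. Of their 37015 reads, 68.9% belonged to Hsp90ab1, a share of reads not scaled by gene length. Levels below are in CPM, counts scaled to a common library total of tested genes with TMM factors, which correct for differences in library composition. Differences are log2 values with their standard error (SE) from edgeR's quasi-likelihood test, and a gene was called at a Benjamini-Hochberg adjusted p under 0.05 over all 6692 genes tested. Of the members, 8 passed the filter on low counts and were tested. The summary row for reads aligned to more than 1 place was 66.3 to 68.4% of the sum of that row and the unique alignments in asynchronous WT, 62.3 to 62.8% in asynchronous S38A and 65.3 to 66.9% in asynchronous S38D libraries. In mitotic libraries it was 73.0 to 73.1%, 65.8 to 70.4% and 72.4 to 72.5% in the same order. It thus rose with state, the direction seen below for Hspa8, Hspd1 and Hspe1. Hsp90ab1 went the other way in WT and S38D cells. This share was also lower in S38A libraries, the direction seen below for Hspe1. Against WT, Hsp90aa1 went the other way in S38A cells of both states, and so did Hsph1 and Hsp90ab1 in mitotic S38A cells. Uniquely aligned reads outside counted features also moved with state, from 19.2 to 23.0% in asynchronous to 29.0 to 34.6% in mitotic WT, from 22.2 to 25.9% to 25.6 to 27.5% in S38A (overlapping) and from 18.0 to 21.8% to 27.9 to 28.4% in S38D libraries. The part of both shares in the mitotic changes and the genotype differences was not tested.

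**Figure D1:**
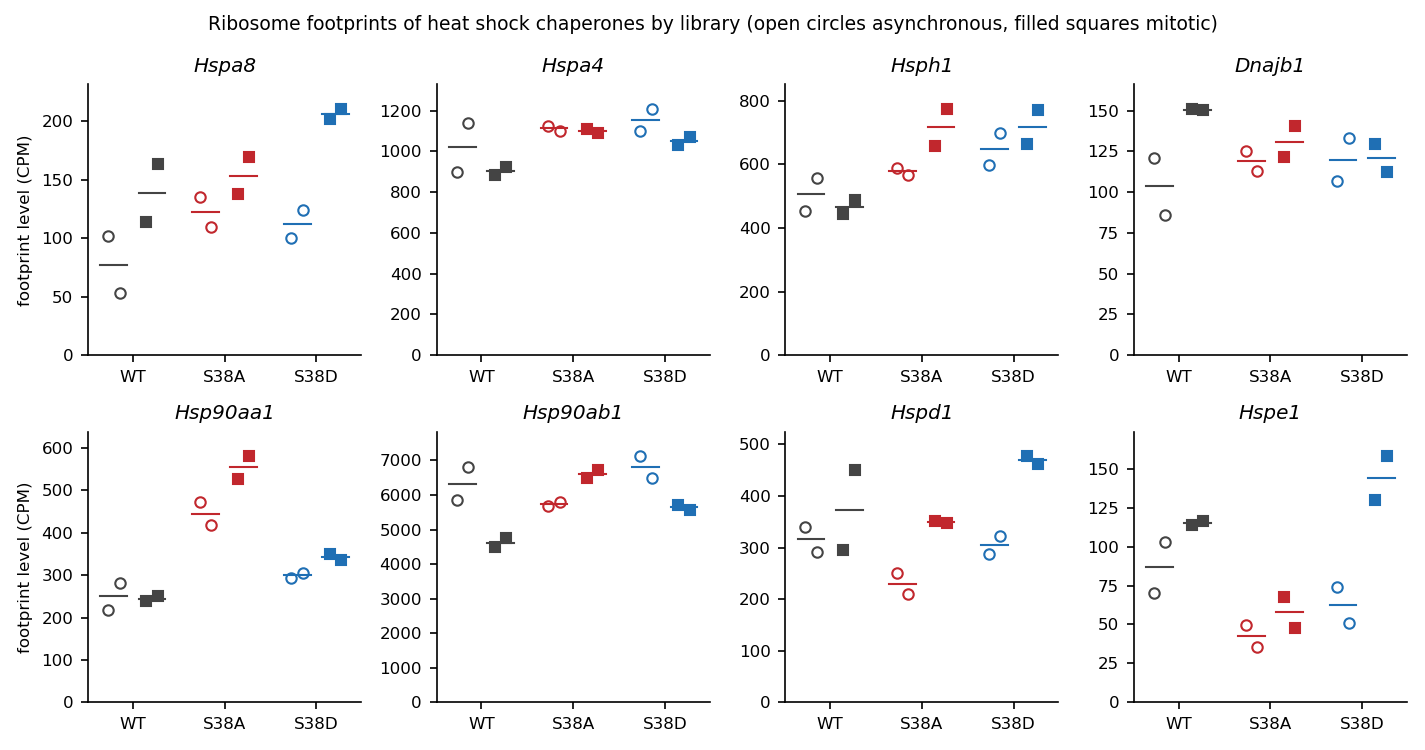
Footprint level (CPM after TMM scaling, linear axes from 0) of each tested chaperone in each of the 12 libraries, by genotype; open circles are asynchronous and filled squares mitotic libraries, and the short line is the mean of the 2 libraries of a group. Hsp90aa1 sits highest in the S38A groups, at 417 to 580 CPM, and Hspe1 lowest there, at 35.6 to 67.7 CPM.

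Hspa1a (ENSMUSG00000091971) and Hspa1b (ENSMUSG00000090877) encode the strongly stress-inducible cytosolic HSP70. Hspa1a had 0 reads in all 12 libraries, out of 4345506 coding reads, which allows up to 0.69 reads per 1e6 coding reads over all libraries together (3 reads, counting error only). Hspa1b had 28 reads in all, spread over 10 of the 12 libraries at 0 to 5 reads each. Asynchronous WT, S38A and S38D groups had 4, 8 and 9 Hspa1b reads and the mitotic groups 3, 3 and 1, or 21 against 7 over all libraries, fewer in mitosis in each genotype. Neither gene passed the filter, and their summed reads did not pass it either. Without a filter, over 11680 genes, the averaged mitotic difference of Hspa1b was log2 -1.43 ± 0.64 (unadjusted p = 0.0262, adjusted p = 0.0975, edgeR's quasi-likelihood test), and none of its 13 comparisons was called. The genes are known as near-identical copies, and the tables hold reads aligned to more than 1 place in a summary row, not under a gene; the effect of this on the pair's counts was not tested.

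In the comparison of mitotic with asynchronous cells averaged over the 3 genotypes, 3 of 8 tested members rose and 0 fell by edgeR's quasi-likelihood test. Hspa8 rose 1.60-fold (log2 0.67 ± 0.15, SE; adjusted p = 0.000218), Hspd1 1.41-fold (0.50 ± 0.11; adjusted p = 0.000251) and Hspe1 1.65-fold (0.73 ± 0.18; adjusted p = 0.000792). These calls were kept when any single library was left out. Across all genes tested, 18.9% were called higher and 20% lower in this comparison. The median log2 change was 0.20 over the tested members and -0.01 over all genes. Of the 8 members, 6 had positive and 2 negative values, and the 5 that were not called had adjusted p from 0.0821 to 0.343.

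Within single genotypes the set of called members differed in name, but such a difference is not itself a test. In WT cells Hspa8 rose and Hsp90ab1 fell, against 9.13% of genes called higher and 9.26% lower. In S38A cells Hspd1 alone rose and 0 fell, against 9.03% and 9.59%. In S38D cells Hspa8, Hspd1 and Hspe1 rose and Hsp90ab1 fell, against 10.6% and 10.9%. 

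**Figure D2:**
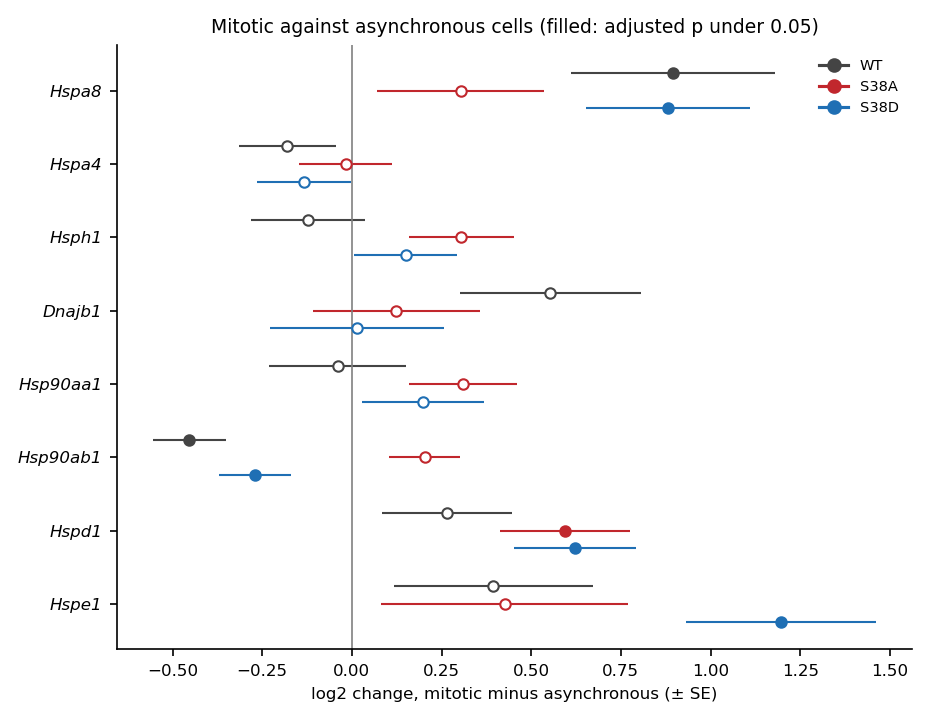
Log2 difference of footprint level, mitotic minus asynchronous, for the 8 tested chaperones within WT, S38A and S38D cells; bars are ± 1 SE from edgeR and filled points have adjusted p under 0.05. Hspa8, Hspd1 and Hspe1 lie to the right of 0 in every genotype, while Hsp90ab1 lies left of 0 in WT and S38D cells and right of 0, not called, in S38A cells.

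Hspa8 (ENSMUSG00000015656; chr9:40801276-40805202, all gene positions being RefSeq's for GRCm38.p6) encodes HSC70, the constitutive cytosolic HSP70. In asynchronous cells its level was 102 and 53.1 CPM in WT, 136 and 110.0 CPM in S38A, and 101 and 124 CPM in S38D libraries. In mitotic cells it was 114 and 163 CPM in WT, 138 and 170 CPM in S38A, and 202 and 210 CPM in S38D libraries. Every mitotic library was above both asynchronous libraries of its own genotype, a separation of states, in either direction, seen in 56.6% (WT), 58.6% (S38A) and 58% (S38D) of all genes tested. The S38D mitotic pair was the highest, and 1 WT asynchronous library, at 53.1 CPM from 16 reads, was the lowest.

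The rise of Hspa8 was 0.90 ± 0.28 on the log2 scale in WT (adjusted p = 0.0186, edgeR) and 0.88 ± 0.23 in S38D cells (adjusted p = 0.0027). In S38A cells the difference was 0.30 ± 0.23 and was not called (adjusted p = 0.395). The mitotic change did not differ detectably between S38A and WT (-0.59 ± 0.37, adjusted p = 0.65) or between S38D and S38A (0.58 ± 0.33, adjusted p = 0.569). The call in WT cells was lost with DESeq2 (adjusted p = 0.104), without WT asynchronous replicate 2 (0.48, adjusted p = 0.425) and without WT mitotic replicate 2 (0.56, adjusted p = 0.362). No genotype difference of Hspa8 was called in either state, with 1 exception under an alternative: without WT asynchronous replicate 1, S38A exceeded WT in asynchronous cells by 1.20 (adjusted p = 0.0459), against 0.71 ± 0.29 with it (adjusted p = 0.124).

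Hspa4 (ENSMUSG00000020361; chr11:53259814-53300479), an HSP110 family nucleotide exchange factor of HSP70, was the steadiest member. Its level ranged from 882 to 1207 CPM, with a median of 1093, and its log2 level had an SD of 0.144 over the 12 libraries. None of its 13 comparisons was called. The mean was 1020 ± 171 CPM (SD, n = 2) in asynchronous and 902 ± 28.6 CPM in mitotic WT cells. In S38A cells the means were 1112 ± 17.3 and 1099 ± 14.4 CPM, and in S38D cells 1152 ± 77.4 and 1050 ± 28.1 CPM. The 2 mitotic WT libraries, at 882 and 923 CPM, were below all S38A and S38D libraries. Within mitosis, S38A separated from WT in 54.6% and S38D in 43.3% of all genes tested, in either direction. The gap of Hspa4 reached log2 0.28 ± 0.13 for S38A against WT in mitosis (adjusted p = 0.154, edgeR).

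Hsph1 (ENSMUSG00000029657; chr5:149616843-149636498) encodes HSP105, a second exchange factor of the HSP110 family. In mitotic cells it had 443 and 487 CPM in WT, 658 and 773 CPM in S38A, and 664 and 772 CPM in S38D libraries. In asynchronous cells it had 453 and 557 CPM in WT, 590 and 566 CPM in S38A, and 599 and 698 CPM in S38D libraries. All 8 libraries with a substituted RPL12 were above all 4 WT libraries, and the distance was widest in mitosis. The share of all genes ordered in this way was not computed. Separation of a substitution from WT within a state, in either direction, was seen in 41.3 to 54.6% of genes tested. In mitotic cells Hsph1 was higher than in WT by 0.62 ± 0.15 in S38A (1.53-fold, adjusted p = 0.00211, edgeR) and by 0.62 ± 0.15 in S38D (1.54-fold, adjusted p = 0.0126).

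Both of these comparisons use the same 2 mitotic WT libraries. In asynchronous cells the Hsph1 differences from WT were 0.19 ± 0.16 for S38A (adjusted p = 0.538) and 0.35 ± 0.15 for S38D (adjusted p = 0.219). S38A and S38D did not differ detectably in mitosis (0.01 ± 0.15, adjusted p = 0.981). The S38A call was lost without WT mitotic replicate 1 (0.57, adjusted p = 0.0516) and without S38A mitotic replicate 2 (0.50, adjusted p = 0.0805). The S38D call was lost without WT mitotic replicate 1 (0.60, adjusted p = 0.185) and without S38D mitotic replicate 2 (0.56, adjusted p = 0.267).

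Dnajb1 (ENSMUSG00000005483; chr8:83608175-83612653) encodes HSP40, the J-domain partner that stimulates HSP70. Its level ranged from 86.2 to 151 CPM over all libraries, from 26 to 60 reads each, and none of its 13 comparisons was called. The largest difference between states was in WT cells, from 121 and 86.2 CPM in the asynchronous to 151 and 150.3 CPM in the mitotic libraries (0.55 ± 0.25, adjusted p = 0.122). In S38D cells the 2 states overlapped, at 107 and 133 CPM against 130 and 112 CPM.

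**Figure D3:**
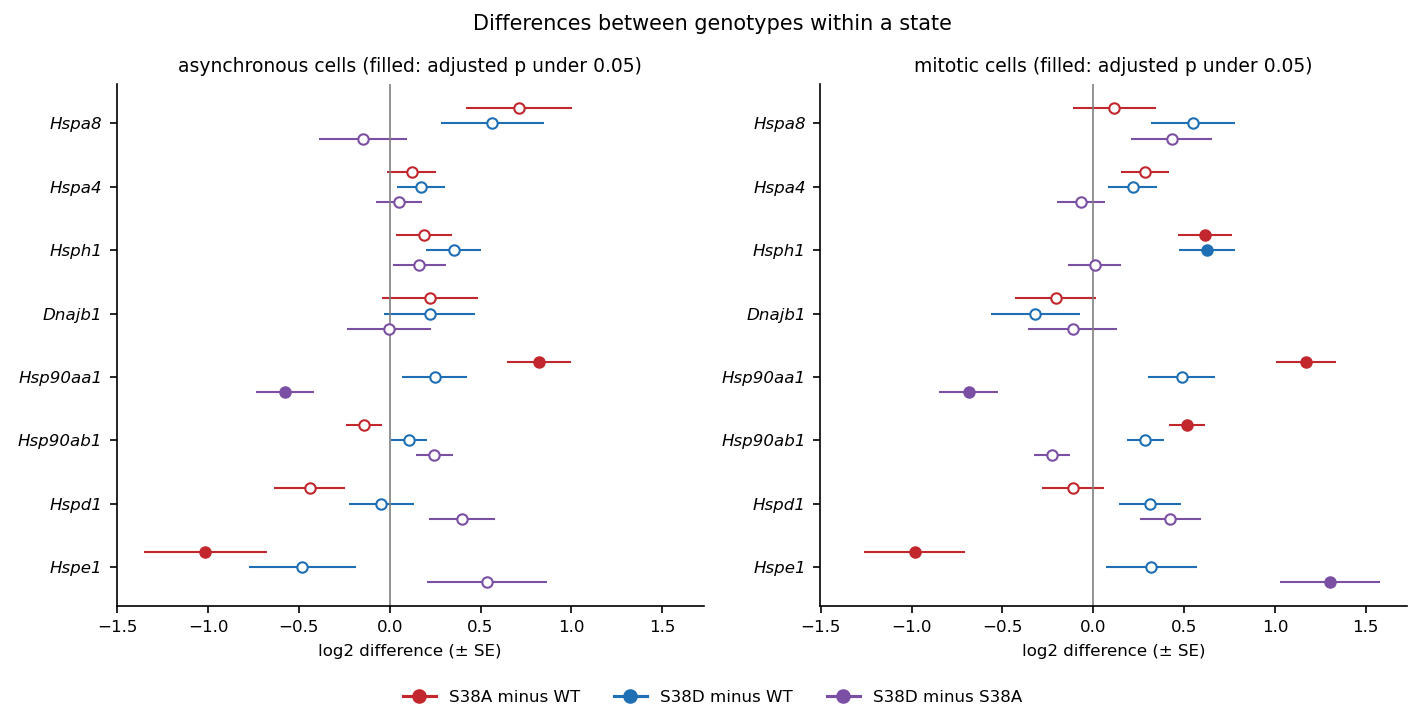
Log2 difference of footprint level between genotypes within asynchronous cells (left) and within mitotic cells (right) for the 8 tested chaperones; bars are ± 1 SE from edgeR and filled points have adjusted p under 0.05. Hsp90aa1 is called higher in S38A than in WT and S38D in both panels, and Hspe1 is called lower in S38A than in WT in both.

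Between genotypes of asynchronous cells, 1 of 8 tested members was higher and 1 lower in S38A than in WT, against 5.86% and 3.47% of all genes. For S38D against WT, 0 members were called by edgeR and 0 by DESeq2, with 1 (Hsph1) at an unadjusted p under 0.05, against 1.48% of genes higher and 1.85% lower. For S38D against S38A, 0 were higher and 1 was lower, against 3.71% and 5.01%. The members' median log2 difference in these comparisons was 0.16, 0.20 and 0.11, and the median of all genes lay between 0.00 and 0.02.

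In mitotic cells 3 members were higher and 1 lower in S38A than in WT, against 7.79% and 5.44% of genes. For S38D against WT, 1 was higher and 0 lower, against 0.702% and 1.12%, or 122 genes, which became 39 to 60 when any 1 of the 4 libraries was left out. For S38D against S38A, 1 was higher and 1 lower, against 6.14% and 6.77%. In the comparison of S38D with WT, the 2 libraries of one genotype lay wholly above or below those of the other for all 8 tested members, 7 of them higher in S38D. Such separation was seen in 43.3% of all genes tested, and 7 of the 8 did not pass the test.

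Hsp90aa1 (ENSMUSG00000021270; chr12:110691036-110696395) encodes HSP90 alpha, the stress-inducible cytosolic HSP90. In asynchronous cells it had 219 and 282 CPM in WT, 472 and 417 CPM in S38A, and 293 and 306 CPM in S38D libraries. In mitotic cells it had 238 and 251 CPM in WT, 528 and 580 CPM in S38A, and 351 and 337 CPM in S38D libraries. The S38A libraries were the 4 highest and the WT libraries the 4 lowest, with S38D between them in both states. How many of all genes show this order was not computed. Separation of S38A from WT, in either direction, was seen in 49.1% of all genes tested in asynchronous and 54.6% in mitotic cells. For S38D against WT these shares were 41.3% and 43.3%, and for S38D against S38A 48.6% and 54.8%.

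S38A exceeded WT 1.77-fold in asynchronous cells (log2 0.82 ± 0.18, adjusted p = 0.000607, edgeR) and 2.25-fold in mitotic cells (1.17 ± 0.16, adjusted p = 1.05e-07). S38D was lower than S38A by 0.57 ± 0.16 in asynchronous (adjusted p = 0.013) and by 0.69 ± 0.16 in mitotic cells (adjusted p = 0.00181); the S38A libraries are the same in both kinds of comparison. S38D was not called against WT, with 0.25 ± 0.18 in asynchronous (adjusted p = 0.567) and 0.49 ± 0.18 in mitotic cells (adjusted p = 0.202). The order of group means was S38A mitotic, S38A asynchronous, S38D mitotic, S38D asynchronous, WT asynchronous and WT mitotic. Of the neighbours in this order, the 2 S38A groups (0.31 ± 0.15, adjusted p = 0.148), the 2 S38D groups (0.20 ± 0.17, adjusted p = 0.453) and the 2 WT groups (-0.04 ± 0.19, adjusted p = 0.927) were not called different.

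The mitotic call of Hsp90aa1 in S38A against WT held in every alternative. The asynchronous call was lost without WT asynchronous replicate 1 (0.64, adjusted p = 0.0543) and without S38A asynchronous replicate 1 (0.69, adjusted p = 0.0537). For S38D against S38A, the asynchronous call was lost with DESeq2 (adjusted p = 0.0585), without S38A asynchronous replicate 1 (-0.47, adjusted p = 0.238) and without S38D asynchronous replicate 1 (-0.54, adjusted p = 0.0626). The mitotic one was lost without S38D mitotic replicate 2 (-0.63, adjusted p = 0.0731).

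Hsp90ab1 (ENSMUSG00000023944; chr17:45567778-45573261) encodes HSP90 beta, the constitutive cytosolic HSP90, and ranked 6 among all genes by total reads. In asynchronous cells it had 5848 and 6810.3 CPM in WT, 5697 and 5790.5 CPM in S38A, and 7119 and 6501 CPM in S38D libraries. In mitotic cells it had 4491 and 4758 CPM in WT, 6493 and 6728 CPM in S38A, and 5720 (5719.7) and 5571 CPM in S38D libraries. Mitotic libraries were lower than asynchronous ones in WT and S38D cells and higher in S38A cells. States did not overlap in any genotype, as in 56.6%, 58.6% and 58% of all genes tested in WT, S38A and S38D cells.

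By edgeR's test the log2 level of Hsp90ab1 fell by 0.45 in WT cells (SE 0.10; adjusted p = 0.000572). In S38D cells it fell by 0.27 (SE 0.10, adjusted p = 0.0427). In S38A cells the difference was 0.20 ± 0.10 and was not called (adjusted p = 0.154), although fitting only these groups gave 0.23 (adjusted p = 0.045). In mitotic cells S38A exceeded WT 1.43-fold (0.52 ± 0.10, adjusted p = 0.000103), a call kept in every alternative. In asynchronous cells S38A against WT was -0.14 ± 0.10 (adjusted p = 0.461). No difference of S38D from WT or S38A was called within a state. Fitting only the groups compared called S38D higher than WT (0.27, adjusted p = 0.00394) and lower than S38A (-0.21, adjusted p = 0.0391) in mitosis, and fitting without a filter on low counts called it higher than S38A in asynchronous cells (0.30, adjusted p = 0.0404).

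Whether mitosis changed footprint levels unequally in S38A and WT cells was tested directly, and Hsp90ab1 was the member that passed: 0.66 ± 0.14 (adjusted p = 0.00543, edgeR). It was 1 of 8 tested members higher, with 0 lower, against 0.149% and 0.299% of all genes. This call was lost without WT asynchronous replicate 2 (0.55, adjusted p = 0.0672), without WT mitotic replicate 1 (0.64, adjusted p = 0.0653) and without S38A mitotic replicate 2 (0.63, adjusted p = 0.0525).

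For S38D against S38A the difference in the mitotic change of Hsp90ab1 was -0.47 ± 0.14 and was not called (adjusted p = 0.119). It was called without a filter on low counts (-0.54, adjusted p = 0.0262) and without S38D asynchronous replicate 2 (-0.55, adjusted p = 0.0374). In this comparison 0 members were called by edgeR and 0 by DESeq2, with 1 at an unadjusted p under 0.05, against 0.105% of genes higher and 0.134% lower. For S38D against WT, 0 were called by edgeR and 0 by DESeq2, with 1 (Hspe1) at an unadjusted p under 0.05, against 0% and 0.0598%.

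The fall of Hsp90ab1 in WT cells missed the threshold without WT asynchronous replicate 2 (-0.33, adjusted p = 0.0512). The fall in S38D cells was lost in 4 of 8 alternative settings, with adjusted p from 0.0656 to 0.119, and without S38D asynchronous replicate 1 (-0.21, adjusted p = 0.192), S38D mitotic replicate 1 (-0.27, adjusted p = 0.199) or S38D mitotic replicate 2 (-0.22, adjusted p = 0.338). Averaged over genotypes, Hsp90ab1 was lower in mitosis by 0.17 ± 0.08 without being called (adjusted p = 0.0821). It was called lower there with no filter (-0.18, adjusted p = 0.0356), as the mean of the 3 within-genotype changes (-0.17, adjusted p = 0.0123), and when any 1 of the 4 S38A libraries was left out, at -0.24 (adjusted p = 0.022) and -0.23 (adjusted p = 0.0249) without asynchronous replicate 1 or 2, and -0.21 (adjusted p = 0.0458) and -0.23 (adjusted p = 0.0217) without mitotic replicate 1 or 2.

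Hspd1 (ENSMUSG00000025980; chr1:55077833-55088243) encodes HSP60, the mitochondrial chaperonin. In asynchronous cells it had 340.1 and 292 CPM in WT, 250.4 and 210.3 CPM in S38A, and 287 and 323 CPM in S38D libraries. In mitotic cells it had 295 and 451 CPM in WT, 353 and 347 CPM in S38A, and 477 and 463 CPM in S38D libraries. The states did not overlap in S38A and S38D cells, as in 58.6% and 58% of all genes tested, in either direction. They overlapped in WT cells, where the mitotic libraries were far apart.

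Hspd1 rose by 0.59 ± 0.18 in S38A (1.51-fold, adjusted p = 0.0137, edgeR) and by 0.62 ± 0.17 in S38D cells (1.54-fold, adjusted p = 0.00438). In WT cells the difference was 0.26 ± 0.18 (adjusted p = 0.34). The mitotic change was not shown to differ between genotypes, with adjusted p of 0.742 for S38A and 0.853 for S38D against WT. No genotype difference of Hspd1 was called within a state; the nearest was S38D against S38A in mitosis (0.42 ± 0.17, adjusted p = 0.0915), which was called when only those groups were fitted (0.45, adjusted p = 0.0119). The S38A call was lost with DESeq2 (adjusted p = 0.0831), without S38A asynchronous replicate 2 (0.47, adjusted p = 0.171), and without S38A mitotic replicate 1 (0.60, adjusted p = 0.0809) or 2 (0.60, adjusted p = 0.0678).

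Hspe1 (ENSMUSG00000073676; chr1:55088148-55091317) encodes HSP10, the lid of the HSP60 chamber, and has its start beside that of Hspd1. It is the least covered of the tested members, with 11 to 45 reads per library. In asynchronous cells it had 70.4 and 103 CPM in WT, 49.6 and 35.6 CPM in S38A, and 73.9 and 50.9 CPM in S38D libraries. In mitotic cells it had 114 and 117 CPM in WT, 67.7 and 47.7 CPM in S38A, and 130 (129.7) and 158 CPM in S38D libraries. The S38A libraries were lowest in both states. Separation of S38A from WT, in either direction, was seen in 49.1% of all genes in asynchronous and 54.6% in mitotic cells. The S38D libraries overlapped WT in asynchronous cells and were above it in mitosis.

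Hspe1 rose 2.29-fold with mitosis in S38D cells (1.20 ± 0.26, adjusted p = 0.000421, edgeR). The differences in WT (0.39 ± 0.28, adjusted p = 0.356) and S38A cells (0.43 ± 0.34, adjusted p = 0.422) were not called. The change in S38D cells exceeded that in WT by 0.80 ± 0.39, which did not pass (adjusted p = 0.731). In mitotic cells S38D exceeded S38A 2.47-fold (1.30 ± 0.28, adjusted p = 0.000483), a call kept in every alternative. S38A was below WT by log2 -1.02 ± 0.34 in asynchronous (adjusted p = 0.0443) and by -0.98 ± 0.28 in mitotic cells (adjusted p = 0.0102).

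The lower level of Hspe1 in S38A than in WT rested on few reads, over both libraries 30 against 49 in asynchronous and 47 against 79 in mitotic cells. The asynchronous call held in 4 of 8 alternative settings, and was lost without WT asynchronous replicate 2 (-0.72, adjusted p = 0.445), S38A asynchronous replicate 1 (-1.33, adjusted p = 0.0841) or S38A asynchronous replicate 2 (-0.80, adjusted p = 0.279). The mitotic call was lost with DESeq2 (adjusted p = 0.106), and without WT mitotic replicate 1 (-0.98, adjusted p = 0.0566), WT mitotic replicate 2 (-0.93, adjusted p = 0.103) or S38A mitotic replicate 2 (-0.76, adjusted p = 0.153). RefSeq lists 23 pseudogenes named after Hspd1 and 7 after Hspe1. For the other members 0 were found, but a match on names misses copies that are named otherwise. The part of reads aligned to copies in the counts of any member was not tested.

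Partner genes were set against each other within libraries, which removes library scaling from the comparison between groups; the ratios are of reads, not scaled by gene length, and are given as a description. Per 100 Hsp90ab1 reads there were 3.94 ± 0.28 Hsp90aa1 reads (SD, n = 2) in WT, 7.75 ± 0.76 in S38A and 4.41 ± 0.41 in S38D asynchronous cells. Mitotic cells had 5.29 ± 0.01 such reads with WT RPL12, 8.38 ± 0.35 with S38A and 6.10 ± 0.06 with S38D. All 4 S38A libraries, at 7.21 to 8.62, lay above all others, and the WT and S38D ratios were higher in mitosis than in asynchronous cells. For this ratio and those below, the share of gene pairs that separate groups in this way was not computed.

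For the exchange factors, 48.8 to 52.8 Hsph1 reads per 100 Hspa4 reads were found in the 4 WT libraries. S38A libraries had 52.4 and 51.5 in the asynchronous and 59.4 and 71.0 in the mitotic state. S38D libraries had 54.6 and 57.8, then 64.4 and 72.1. The mitotic libraries of both substitutions stood above every other library in this ratio, and how many other gene pairs do so is not known here. For the mitochondrial pair, Hspe1 reads per 100 Hspd1 reads averaged 18.4 ± 2.05 and 16.4 ± 3.89 in asynchronous and mitotic S38A cells. They averaged 28.0 ± 10.3 and 32.2 ± 8.98 in WT and 20.8 ± 7.00 and 30.6 ± 4.88 in S38D cells, where the libraries of the 2 states overlapped in WT but not in S38D. Among mitotic cells both S38A libraries (13.7 and 19.2) were below the rest (25.9 to 38.6), and among asynchronous cells the S38A libraries (19.8 and 16.9) were below WT (20.7 and 35.2) and within the range of S38D (15.8 to 25.7).

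**Figure D4:**
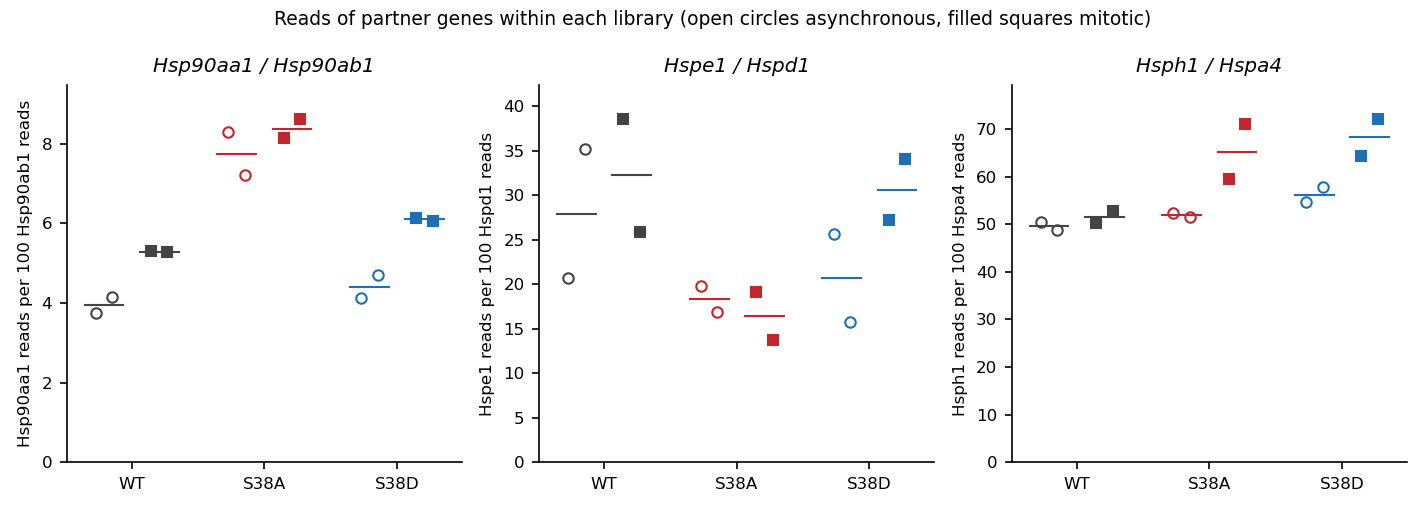
Reads of 1 chaperone per 100 reads of its partner in each of the 12 libraries (Hsp90aa1 per Hsp90ab1, Hsph1 per Hspa4 and Hspe1 per Hspd1), by genotype; open circles are asynchronous and filled squares mitotic libraries, and the short line is the mean of 2. The S38A libraries lie at 7.21 to 8.62 Hsp90aa1 reads per 100 Hsp90ab1 reads, above the 3.74 to 6.14 of the others.

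Across the 12 libraries the members did not vary as a unit. The SD of the log2 level ran from 0.144 for Hspa4 over 0.203 for Hsp90ab1, 0.216 for Dnajb1, 0.27 for Hsph1, 0.353 for Hspd1, 0.451 for Hsp90aa1 and 0.51 for Hspa8 to 0.627 for Hspe1. Pairwise correlations of log2 level, which share the libraries and their groups, ranged from 0.749 for Hspa4 with Hsp90ab1 to -0.611 for Dnajb1 with Hsp90ab1. Hspd1 and Hspe1, the neighbours that share the element shown above, correlated at r = 0.727, and Hspa4 with Hsph1 at r = 0.724. Hsp90aa1 and Hspe1, the members that moved in opposite directions in S38A cells, correlated at r = -0.508. This pair was picked by its differences in the same libraries, so its r is no separate evidence. Among the 4251 other genes with a mean of at least 50 CPM, the gene most like Hsp90aa1 over the 12 libraries was ENSMUSG00000021190 (r = 0.958), and the gene most like Hspe1 was ENSMUSG00000022205 (r = 0.97); no table here named these IDs.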

How the data were processed

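For each of 12 ribosome profiling libraries the authors deposited raw counts of reads per gene as whole numbers, with cycloheximide at 100 µg/ml during harvest and 12 libraries per lane per the labels' protocols. Tools in the submitters' processing notes are STAR 2.5.3a, Bowtie2 2.3.2, bcl2fastq 2.16.0.10, DESeq2 1.18.1 and HTSeq 0.9.1, and the build is mm10; their roles are not given in the sources used here. Nor are use of strand and removal of duplicate reads, so the floor of 3 reads covers counting error only. Summary rows entered neither library sizes nor tests; 18.0 to 34.6% of the unique alignments of a library lay outside counted features.

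Tests used edgeR 4.0.16 in R 4.3.3 on the counts (TMM, filterByExpr with a minimum count of 10, quasi-likelihood F test), leaving 6692 of 11680 genes with a read. The 6 groups formed 1 model; an additive model of genotype and state gave the averaged state change. SE is the log2 difference over the square root of F. Correlations used log2 CPM with a prior count of 2. The script was tested on simulated data. Alternatives were DESeq2 1.42.0, its size factors in edgeR, library totals, no filter, a mean of at least 10 CPM, only the groups compared, the copies Hspa1a and Hspa1b summed, a replicate block and each library left out.

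Every member is accounted for by rule, and the members and lists were chosen with earlier results of these data known. No table here paired Ensembl IDs with symbols, so lists of other chaperone genes and of cell type markers were not applied, and no coding lengths were used. Gene positions and promoter windows are RefSeq's for GRCm38.p6.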

Additional observations from a re-analysis of the deposited data

Results flagged for a closer look

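The mitotic change of Hsp90ab1, the constitutive cytosolic HSP90, differed between S38A and WT cells by 0.66 on the log2 scale in the test of the difference itself (adjusted p = 0.00543, edgeR's quasi-likelihood test). The call was lost in 3 of 8 fits that left out 1 library, with adjusted p of 0.0672, 0.0653 and 0.0525. Hsp90ab1 fell in WT cells, and its change in S38A cells was not called (0.20, adjusted p = 0.154).

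The same gene differed between S38D and S38A cells by -0.47 (adjusted p = 0.119), which did not pass the threshold. It is listed because both mitotic S38A libraries were above, and both mitotic S38D libraries below, the asynchronous libraries of their genotype. States separate in this way, in either direction, in 58.6% of all genes tested in S38A and 58% in S38D cells.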

How the results depend on the processing

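Of 21 calls of single members, 9 held in every alternative and when each library was left out, 0 changed direction among called values, and 8 uncalled values were gained somewhere. Changes in the counts of members are listed where a count changed by over 1.5 times, or to or from 0. Smaller ones are left out, such as from 3 to 4 for the averaged state comparison without a filter. Calls of members went from 2 to 1 (state in WT), 1 to 0 (state in S38A), 2 to 1 (S38A against WT, asynchronous) and 1 to 0 (S38D against S38A, asynchronous) with DESeq2. Over all genes DESeq2 called fewer than edgeR by over 1.5 times in 11 of 13 comparisons: 608 against 1231, 565 against 1246 and 749 against 1435 for state in WT, S38A and S38D; 238 against 624 and 350 against 885 (S38A and WT, asynchronous and mitotic); 66 against 223 and 58 against 122 (S38D and WT); 152 against 583 and 361 against 864 (S38D and S38A); 2 against 4 and 3 against 16 for the mitotic change of S38D minus that of WT and of S38A. Without a filter these last were 7 and 38, and with only the groups compared S38D against WT gave 70 and 228. Calls of members with no filter were 1 for S38A against WT and 2 for S38D against S38A in asynchronous cells. For the mitotic change of S38D minus that of S38A there was 1. Over all genes these were 562, 502 and 38 calls. A mean of at least 10 CPM gave 1 for S38A against WT in asynchronous cells, with 588 over all genes. Fitting only the groups compared gave 2 for state in S38A and 1 for S38A against WT in asynchronous cells. In mitosis it gave 2 and 4 for S38D against WT and against S38A. Over all genes the calls of these 4 fits were 1432, 458, 228 and 1100. Leaving out a library gave 0 to 2 calls for state in WT, 0 to 1 for state in S38A, and in asynchronous cells 0 to 2 (S38A against WT) and 0 to 1 (S38D against S38A). In mitosis it gave 2 to 4 (S38A against WT), 0 to 1 (S38D against WT) and 1 to 2 (S38D against S38A). For the mitotic change it gave 0 to 1 for S38A minus WT and 0 to 1 for S38D minus S38A. Over all genes these fits called 647 to 959, 702 to 840 and 782 to 1276 for state in WT, S38A and S38D. They called 262 to 422 and 443 to 550 (S38A and WT, asynchronous and mitotic), 104 to 221 and 39 to 60 (S38D and WT), and 158 to 477 and 371 to 487 (S38D and S38A). For the mitotic change they called 20 to 42 (S38A and WT), 1 to 14 (S38D and WT) and 4 to 35 (S38D and S38A). The library left alone in its group is then assumed to vary like those of the other groups. The cause of these changes was not tested. Replicate differences of same-numbered libraries correlated at -0.232 to 0.0918 over 15 pairs of groups (4259 genes), and these libraries were not treated as pairs. The lowest values were those of S38D asynchronous with WT (-0.232) and S38A (-0.151) asynchronous libraries. A replicate block changed none of the 13 counts of members (4 for state in S38D, 1 for the mitotic change of S38A minus that of WT). Crossing the numbers of the S38D asynchronous libraries, chosen after seeing the data, left 0 for S38D against WT and 1 for S38D against S38A. Over all genes the calls of these comparisons went from 206 to 287 and from 530 to 643 when the numbers in the block were crossed. Depth limits Hspe1, Hspa8 and Dnajb1, with 11 to 64 reads a library, and more so Hspa1b, tested only without a filter, while Hspa1a had 0 reads.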
